A study of Mus musculus with 8 samples.

Results

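The genes described here encode the mTORC1 pathway and its nutrient sensing machinery: the kinase complexes themselves, the growth factor arm that ends at RHEB, the Rag GTPases with their lysosomal anchor and regulators, the GATOR complexes and sestrins, and the direct substrates. They were chosen by symbol from a list of 45 components of the pathway, with no measured value in the rule but with earlier results of these data known. Of the 45, 44 were found among the 18635 genes of the table. Samtor, the S-adenosylmethionine sensor, had no match by that symbol; Bmt2, an earlier symbol for the same gene, is given beside the others and is not counted.

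mTORC1 is a kinase complex that promotes protein and lipid synthesis and holds back autophagy when growth signals and nutrients are both present. Amino acids act through the Rag GTPases, which work as pairs of RagA or RagB with RagC or RagD, sit on the lysosome through the Ragulator complex and bring mTORC1 there. Growth factors act through PI3K and AKT, which restrain the TSC complex and so allow RHEB, a small GTPase on the same membrane, to switch the kinase on.

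RNA was sequenced from 8 samples of tumor-educated macrophages (TEMs), 4 of Phgdh fl/fl genotype and 4 of Phgdh fl/fl Cx3cr1-Cre genotype, to learn what loss of PHGDH, the first enzyme of serine synthesis from glucose, did to their transcripts. Both groups carried floxed Phgdh alleles and came from littermates on a C57BL/6 background. Bone marrow of mice aged 6 to 8 weeks was differentiated for 7 days with L929-conditioned supernatant, and the resulting bone marrow-derived macrophages (BMDMs) were kept for 24 h in medium conditioned by AE17 mouse mesothelioma cells (AE17-TCM). Cre is driven from the Cx3cr1 locus itself, so the Cre group also has 1 altered Cx3cr1 allele that the floxed group lacks, and loss of Phgdh and presence of Cre at that locus cannot be told apart. BMDMs without AE17-TCM were not analysed here. The submitters describe the samples of a genotype as biological replicates. In such bulk samples, fewer cells of a type and less RNA per cell cannot be told apart.

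The genotype labels were first checked on the targeted gene. Phgdh stood at normalized counts of 104.9 to 128.9 in the 4 floxed samples and at 14.2 to 35.3 in the 4 Cre samples, a log2 fold change of -2.15 (limma adjusted p = 5.09e-08). Cx3cr1 fell by 0.70 on the log2 scale (adjusted p = 1.87e-09). Each library held between 38219563 and 47027420 gene reads, and the first principal component, with 44.8% of the variance, separated the genotypes. Defining macrophage transcripts were abundant, with a summed normalized count of 8 markers of 1030176.0 to 1121134.3 in floxed and 1008584.6 to 1085171.9 in Cre samples, although Fcgr1, Cd14, Itgam and Adgre1 passed the test as lower. Of the 6 neutrophil markers 1 was measured, S100a8, at 466.7 to 574.7 against 575.7 to 631.3, and the 2 of 5 B cell markers measured, Cd79b and Ms4a1, summed to 197.1 to 252.8 against 130.5 to 166.7. The T cell, NK cell, dendritic cell and mesothelial or fibroblast lists each summed to at most 41.7 in any sample. Among 5 sex-linked genes, the Y-linked Ddx3y, Eif2s3y, Kdm5d and Uty were abundant (1864.8 normalized counts or more) in all 8 samples, with Eif2s3y called lower (-0.18) and Uty higher (0.19), and Xist stood at 0.0 to 8.6 in floxed and 22.4 to 43.6 in Cre samples (adjusted p = 4.26e-05); Rragb and Tfe3 lie on the X chromosome. The part of these shifts in the values below was not tested.

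All 44 genes passed the minimum mean normalized count of 10 that 13629 genes met, and they were well expressed, with a median of 2144.1 against 831.5 for all tested genes. Of the 44, 11 were lower and 11 were higher in Cre TEMs at a limma adjusted p under 0.05, and 22 did not pass. Over all tested genes 20.3% were called lower, 20.8% higher and 41.0% in either direction, and among the 4000 tested genes with counts between the quartiles of the pathway genes 52.1% were called. The share of pathway genes called was therefore near the background. The changes were also small: the median log2 fold change was 0.008, against -0.0018 for all tested genes, the median absolute log2 fold change was 0.092 against 0.123, and 1 gene, Rragd, exceeded an absolute value of 0.5. The 4 Cre and 4 floxed values did not overlap for 22 of the 44 genes, against 36.7% of all tested genes. The share without overlap among genes at the levels of the pathway genes was not computed. Groups that do not overlap always give p = 0.0286 in the exact two-sided permutation test over the 70 labelings, the smallest value that 4 samples against 4 allow. For those 22 genes the test therefore adds nothing to the lack of overlap.

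**Figure D1:**
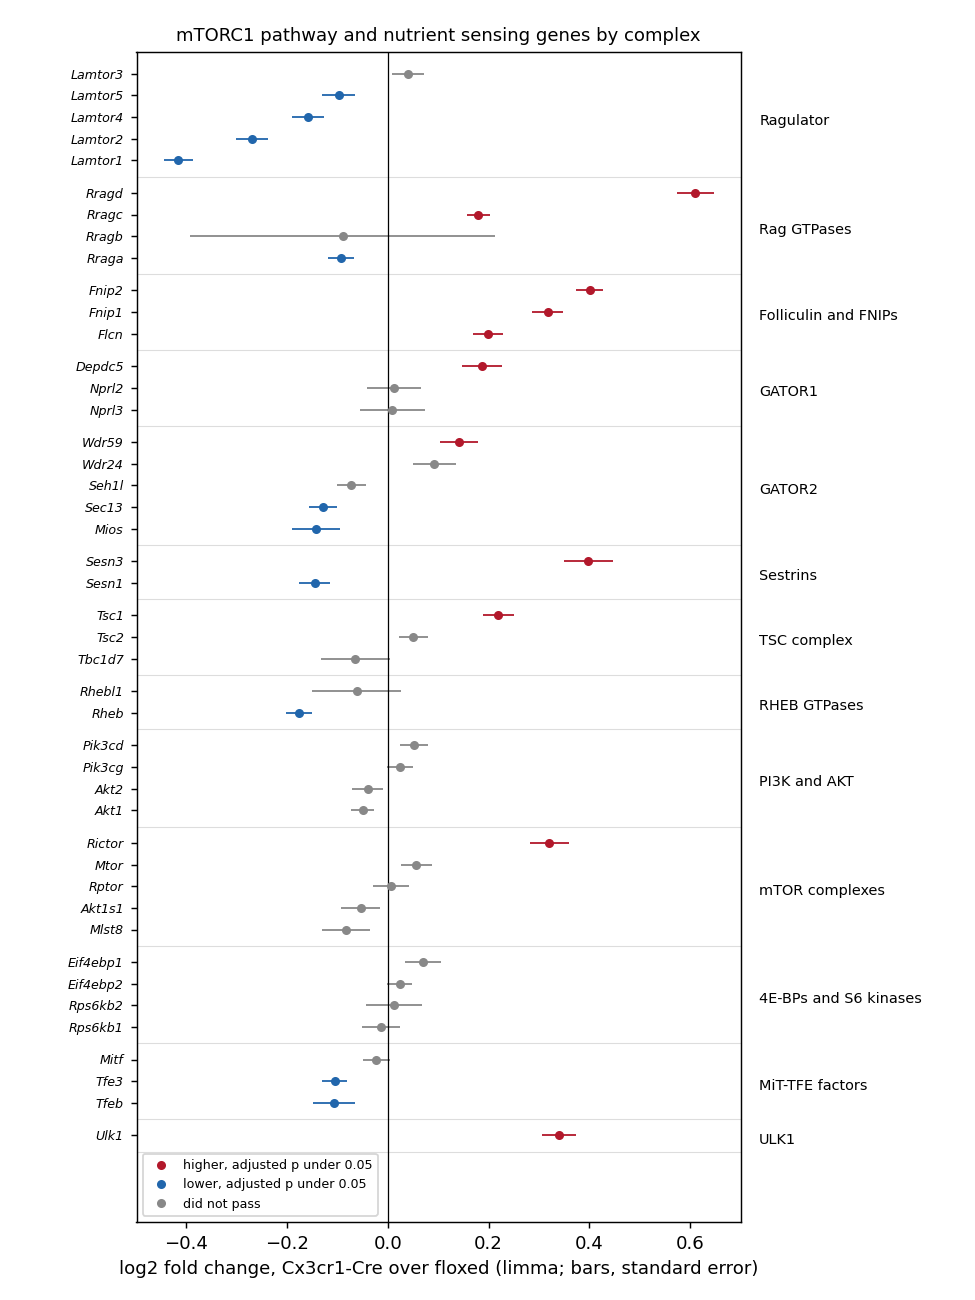
Log2 fold change of the 44 genes, Phgdh fl/fl Cx3cr1-Cre over Phgdh fl/fl TEMs, from the limma fit over all tested genes (horizontal axis; bars, standard error), grouped by complex on the vertical axis. Ragulator genes lie mostly left of 0, with Lamtor1 at -0.42, folliculin genes all lie right of 0, and Rragd at 0.61 stands farthest out, while the PI3K, AKT, 4E-BP and S6 kinase genes lie close to 0.

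The largest log2 fold change in each direction, Rragd at 0.61 and Lamtor1 at -0.42, lay in the lysosomal amino acid branch. Outside it, Sesn3 (0.40), Ulk1 (0.34) and Rictor (0.32) changed more than Flcn (0.20), Rragc (0.18) and Lamtor4 (-0.16) within it. Of the 5 Ragulator genes, 4 were lower and none was higher; of the 4 Rag GTPase genes, 1 was lower and 2 were higher; and of the 3 folliculin genes, all 3 were higher. Their median log2 fold changes were -0.16, 0.05 and 0.32. For these counts and those of the other groups and lists below, 20.3% of all tested genes were called lower and 20.8% higher. At the levels of the pathway genes, 52.1% were called in either direction. Summed over its 5 genes as FPKM (reads scaled by exon length and by the gene reads of the library, computed here so that levels can be compared between genes), Ragulator fell from 237.6 to 207.9, and the folliculin genes rose from 83.2 to 107.1.

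Rragd, which encodes RagD and lies on chromosome 4 (GRCm38, chr4:32983037-33022180, plus strand), changed more than any other gene of the 44. Its normalized counts were 1211.4, 1191.0, 1229.1 and 1146.8 in the 4 floxed samples and 1892.5, 1760.5, 1855.3 and 1790.5 in the 4 Cre samples. Every Cre sample lay well above every floxed sample. The mean rose from 1194.5 ± 35.5 (SD, n = 4) to 1824.7 ± 60.1, a log2 fold change of 0.61 (SE 0.036, limma adjusted p = 2.22e-11) or 52.7%.

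Rragc, the gene of its close relative RagC (chr4:123917446-123936997, plus strand), rose from 11765.8 ± 273.8 to 13325.9 ± 199.5 (log2 fold change 0.18, adjusted p = 1.77e-06). In FPKM, Rragc was much the more abundant of the pair, at 81.3 against 5.33 for Rragd in floxed TEMs. The FPKM ratio of Rragc to Rragd was 14.9 to 15.9 in the floxed samples and 10.7 to 11.8 in the Cre samples, so the groups did not overlap and RagD transcripts made up a larger part of the pair. Neither partner gene was called higher. Rraga, which encodes RagA, fell by 0.09 on the log2 scale (adjusted p = 0.00692; 62.6 to 59.3 FPKM). Rragb was close to the limit of detection, at 12.4 to 15.8 normalized counts in floxed and 10.7 to 21.8 in Cre samples, and no difference was detectable at that depth (adjusted p = 0.844).

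Ragulator is the scaffold that holds the Rag GTPases on the lysosomal membrane, and LAMTOR1 is its lipid-anchored subunit. Lamtor1 (chr7:101905904-101926675, plus strand) had normalized counts of 4621.4, 4741.0, 4774.7 and 5019.2 in the floxed samples and 3653.4, 3611.4, 3474.8 and 3613.0 in the Cre samples. The groups were far apart relative to their spread. Its mean fell from 4789.1 ± 166.9 to 3588.1 ± 78.0 (log2 fold change -0.42, SE 0.028, adjusted p = 2.28e-10). Lamtor2 changed by -0.27 (4990.5 ± 182.4 to 4138.7 ± 168.9, adjusted p = 6.41e-07) and Lamtor4 by -0.16 (adjusted p = 0.000326), and in both the groups did not overlap. Lamtor5 was lower by less, at -0.097 (2070.1 ± 65.8 to 1934.7 ± 57.4, adjusted p = 0.0221), and its groups overlapped. The Lamtor5 call was lost without floxed replicate 2 or 3 or Cre replicate 1 or 4. It was also lost with scaling to total reads and without the variance trend of limma. Its adjusted p reached up to 0.0789 over the alternative settings. The remaining subunit, Lamtor3, did not pass (0.04, adjusted p = 0.348). In floxed TEMs the order by FPKM was Lamtor2 at 94.5, Lamtor5 at 54.0, Lamtor4 at 38.2, Lamtor1 at 34.4 and Lamtor3 at 16.5. This order depends on the length of all annotated exons of each gene, 884 bases for Lamtor5 and 4151 for Lamtor3. By normalized counts, Lamtor3 (2971.0) stood above Lamtor4 (2155.1) and Lamtor5 (2070.1).

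Folliculin, with its partners FNIP1 and FNIP2, acts as the GTPase-activating protein of RagC and RagD, the step that lets mTORC1 phosphorylate TFEB and TFE3. Fnip2 (chr3:79455974-79567796, minus strand) had normalized counts of 19375.2, 17979.1, 17557.4 and 17587.8 in the floxed samples and 23846.4, 23971.5, 23852.6 and 23975.3 in the Cre samples. The Cre values were tightly grouped and all above the floxed ones. The log2 fold change was 0.40 (18124.9 ± 855.4 to 23911.4 ± 71.6, SE 0.027, adjusted p = 1.51e-10). Fnip1 rose by 0.32 (6101.1 ± 298.9 to 7596.8 ± 201.1, adjusted p = 3.49e-08) and Flcn by 0.20 (2510.4 ± 74.5 to 2880.4 ± 47.6, adjusted p = 1.19e-05). Both FNIP genes rose by similar amounts, and the FPKM ratio of Fnip1 to Fnip2 moved little, from 0.395 ± 0.00647 to 0.373 ± 0.0107, with ranges that touched.

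**Figure D2:**
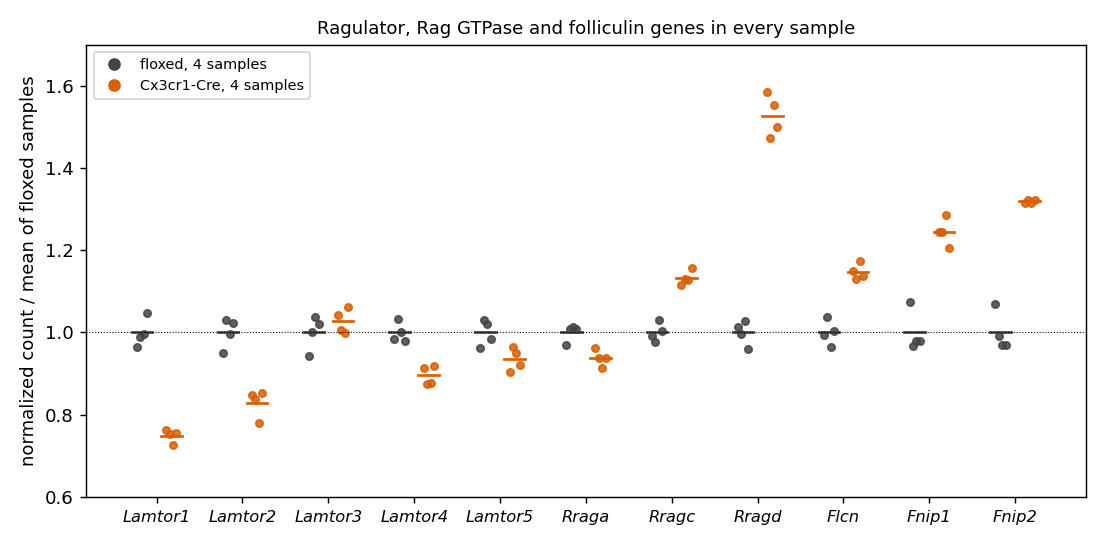
Normalized count of each Ragulator, Rag GTPase and folliculin gene in every sample, divided by the mean of the 4 floxed samples (vertical axis, linear; points, samples; bars, group means; Rragb left out for its low count). Cre samples lie below the floxed ones for Lamtor1, Lamtor2, Lamtor4 and Rraga and above them for Rragc, Rragd, Flcn, Fnip1 and Fnip2, while Lamtor3 and Lamtor5 overlap.

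TFEB, TFE3 and MITF, themselves substrates of mTORC1, bind DNA at E-boxes with the core CACGTG, and Rragd, Rragc, Flcn and Fnip genes are known among their targets. This core, which reads the same on both strands, was searched in the RefSeq promoters of GRCm38.p6 (250 bases before to 50 after the start of the gene). It occurred in 8.09% of 27025 genes with such a promoter. Of the 44 pathway genes 38 had a promoter entry, and 7 of these held the core: Rragc and Fnip1, which were higher, Rheb, Lamtor4 and Lamtor1, which were lower, and Tbc1d7 and Rragb, which were not called. Of the known targets named above, Rragd, Flcn and Fnip2 were not among the 7, for lack of either the core or a promoter entry. A match is a description of the letters and not of binding. The 5 called genes are shown because they include both directions of change, each as 60 bases 5′ to 3′ on the strand of the gene, with the core in capitals. The core starts 112 bases before the start of Rragc (chr4:123917294-123917353, plus strand), 75 before Fnip1 (chr11:54438077-54438136, plus), 68 before Lamtor1 (chr7:101905742-101905801, plus), 120 before Lamtor4 (chr5:138255335-138255394, plus) and 96 before Rheb (chr5:24842425-24842484, minus). Lamtor4 holds the core again 104 bases before its start, shown in lower case within the same window.
Rragc: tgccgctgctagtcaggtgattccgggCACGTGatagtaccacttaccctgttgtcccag
Fnip1: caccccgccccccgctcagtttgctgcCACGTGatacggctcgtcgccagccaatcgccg
Lamtor1: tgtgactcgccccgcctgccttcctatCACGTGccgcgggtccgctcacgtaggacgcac
Lamtor4: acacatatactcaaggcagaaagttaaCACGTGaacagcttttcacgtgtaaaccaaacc
Rheb: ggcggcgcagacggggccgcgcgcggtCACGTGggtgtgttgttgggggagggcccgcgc

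Because Lamtor1 carried the largest decrease, its neighbourhood was measured as well; this was chosen after its value was seen. Within 250 kb lay 15 other tested genes, of which 4 were lower and 6 higher. From there to 1000 kb lay 13 more, of which 2 were lower and 7 higher. Over all tested genes 20.3% were called lower and 20.8% higher. Folr2, a folate receptor gene 48.7 kb away, fell by 1.28 on the log2 scale (25577.4 to 10563.4 normalized counts, adjusted p = 1.02e-19), and Anapc15, a subunit gene of the anaphase-promoting complex 4.1 kb away, fell by 0.92 (2562.2 to 1352.3, adjusted p = 1.18e-13). Folr1 and Gm22655, which lie between Folr2 and Anapc15, were also lower, at -1.16 and -1.22. On the other side, Numa1, 7.4 kb away, was 0.10 higher (adjusted p = 0.00181). Lrrc51, whose exons on the opposite strand overlap 18.7% of the Lamtor1 exon bases, rose from 32.4 to 73.0 normalized counts, and Tomt, which also overlaps Lamtor1, had 16.4 and 8.6 (adjusted p = 0.0812). These counts are small beside those of Lamtor1. The part of this shared position in the Lamtor1 value was not tested.

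**Figure D3:**
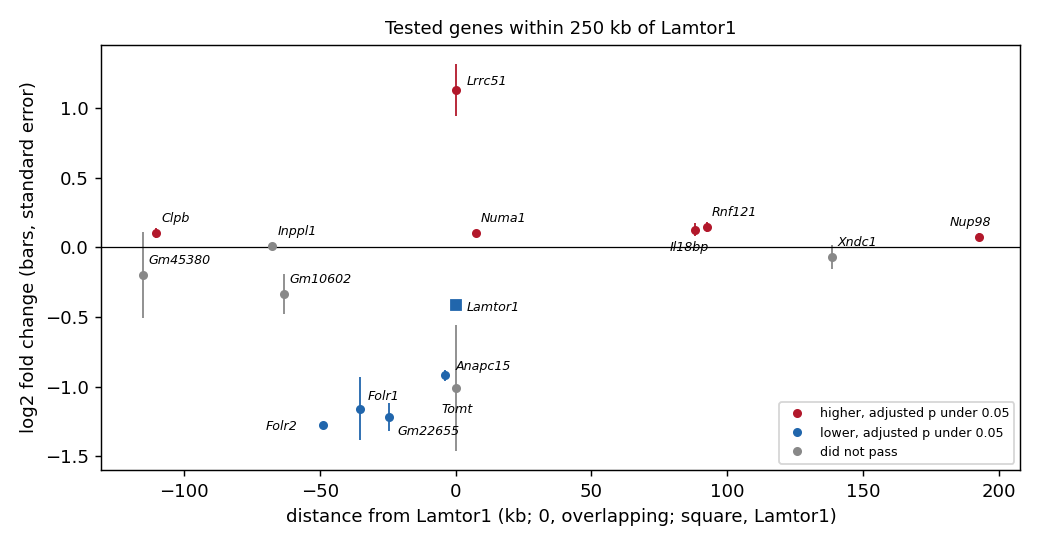
Log2 fold change (vertical axis; bars, standard error from limma) of the tested genes within 250 kb of Lamtor1 against their distance from it in kb (horizontal axis, 0 for genes that overlap it; square, Lamtor1). The lower genes Folr2, Folr1, Gm22655 and Anapc15 lie together on one side at -0.92 or below. Farther out on that side lie Gm10602 (-0.34), Inppl1 (0.01), Clpb (0.10, called higher) and Gm45380 (-0.20). The genes on the other side lie between -0.07 and 0.14. Of the genes that overlap Lamtor1, Lrrc51 lies at 1.13 and Tomt at -1.01.

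Upstream of the Rag GTPases, GATOR1 switches off RagA and RagB, GATOR2 opposes GATOR1, and sestrins bind GATOR2. Of the 10 GATOR and sestrin genes measured, 3 were lower and 3 higher, with a median log2 fold change of 0.01. Sesn3 (chr9:14275067-14333101, plus strand) had normalized counts of 595.0, 595.5, 559.2 and 561.9 in floxed and 732.5, 777.4, 801.1 and 736.2 in Cre samples. Sesn1 moved the other way, with 2970.3, 3081.5, 3203.4 and 3236.1 in floxed and 2745.4, 2864.2, 2827.2 and 2855.4 in Cre samples. Neither gene had overlapping groups. The log2 fold change was 0.40 for Sesn3 (577.9 ± 20.0 to 761.8 ± 33.2, SE 0.048, adjusted p = 1.07e-06) and -0.14 for Sesn1 (3122.8 ± 121.5 to 2823.0 ± 54.1, SE 0.031, adjusted p = 0.000609). Sesn1 remained far more abundant, and the FPKM ratio of Sesn1 to Sesn3 went from 19.1 to 22.1 in the floxed samples down to 13.5 to 14.9 in the Cre samples. Sesn2, which is not among the 44, did not pass (0.07, adjusted p = 0.135). In floxed TEMs it stood at 8.14 FPKM, against 18.1 for Sesn1 and 0.873 for Sesn3.

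In GATOR1, Depdc5, whose product contacts the Rag GTPases, was 0.19 higher (1246.5 ± 61.9 to 1418.4 ± 37.8, adjusted p = 0.000594), while its partners Nprl2 (0.01, adjusted p = 0.88) and Nprl3 (0.0092, adjusted p = 0.926) did not pass. In GATOR2, Sec13 (-0.13, adjusted p = 0.000817) and Mios (-0.14, adjusted p = 0.0184) were lower and Wdr59 was higher (0.14, adjusted p = 0.00478). The Mios call was lost without Cre replicate 3 and with DESeq2, with an adjusted p of up to 0.0642. Wdr24 stood at 0.09 (adjusted p = 0.089) and passed without floxed replicate 1 (lowest adjusted p = 0.0331). Seh1l, whose product like that of Sec13 also belongs to the nuclear pore, stood at -0.07 with no overlap between groups and an adjusted p of 0.0564. The GATOR2 subunits thus did not share a direction. Bmt2, counted apart, was 0.093 higher (7181.4 ± 205.9 to 7660.7 ± 170.4, adjusted p = 0.00544).

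Of the 9 genes of the growth factor arm, 1 was lower and 1 higher. Rheb (chr5:24802823-24842624, minus strand), the direct activator of the kinase, had normalized counts of 4342.5, 4506.3, 4601.0 and 4563.2 in floxed and 4015.7, 4052.1, 3917.0 and 3955.4 in Cre samples. Tsc1, whose product stabilizes the complex that switches RHEB off, had 2071.3, 1905.2, 1969.2 and 1999.7 in floxed and 2305.4, 2294.7, 2290.4 and 2355.5 in Cre samples. The transcripts of Rheb and Tsc1 thus moved in opposite directions, without overlap between groups in either. Rheb changed by -0.18 (SE 0.026, adjusted p = 1.3e-05) and Tsc1 by 0.22 (SE 0.031, adjusted p = 8.36e-06). Tsc2, the catalytic partner of Tsc1, stood at 0.05 (adjusted p = 0.161), and the FPKM ratio of Tsc1 to Tsc2 was 0.544 to 0.591 in floxed and 0.631 to 0.655 in Cre samples. The third subunit gene, Tbc1d7 (-0.06, adjusted p = 0.48), and the Rheb relative Rhebl1 (-0.06, adjusted p = 0.615) did not pass. Neither did the leukocyte PI3K catalytic subunits Pik3cg (0.02, adjusted p = 0.499) and Pik3cd (0.05, adjusted p = 0.146), nor Akt2 (-0.04, adjusted p = 0.315). Akt1 stood at -0.05 with no overlap between groups (9044.3 ± 188.1 and 8737.8 ± 111.0, adjusted p = 0.0886). Without floxed replicate 1, Akt1 (lowest adjusted p = 0.0402) and Tsc2 (0.0474) passed.

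At the kinase itself, 1 of 5 genes was called. Mtor had normalized counts of 2207.0, 2171.2, 2105.6 and 2103.7 in floxed and 2235.7, 2281.2, 2238.6 and 2176.6 in Cre samples. Rptor, the subunit that defines mTORC1, had 2664.4, 2339.7, 2491.2 and 2602.6 against 2564.2, 2561.8, 2442.9 and 2566.6. Both sets overlapped between the genotypes. Mtor stood at a log2 fold change of 0.06 (SE 0.03, adjusted p = 0.14) and Rptor at 0.0068 (SE 0.036, adjusted p = 0.902). Rictor (chr15:6708379-6800401, plus strand), which defines the other complex, mTORC2, had 2109.4, 1897.9, 1792.4 and 1898.5 in floxed and 2431.4, 2451.6, 2381.9 and 2336.1 in Cre samples, with every Cre sample higher. It rose by 0.32 (1924.6 ± 132.9 to 2400.3 ± 51.9, SE 0.039, adjusted p = 1.15e-06), and the FPKM ratio of Rptor to Rictor fell from 1.65 ± 0.0978 to 1.33 ± 0.0389, with no overlap. Mlst8, shared by both complexes and with the lowest log2 fold change of the 5, had normalized counts of 694.5, 740.0, 731.9 and 767.1 against 697.6, 729.6, 667.9 and 673.0 (-0.08, adjusted p = 0.171), and Akt1s1, the gene of the mTORC1 inhibitor PRAS40, stood at -0.05 (adjusted p = 0.281).

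**Figure D4:**
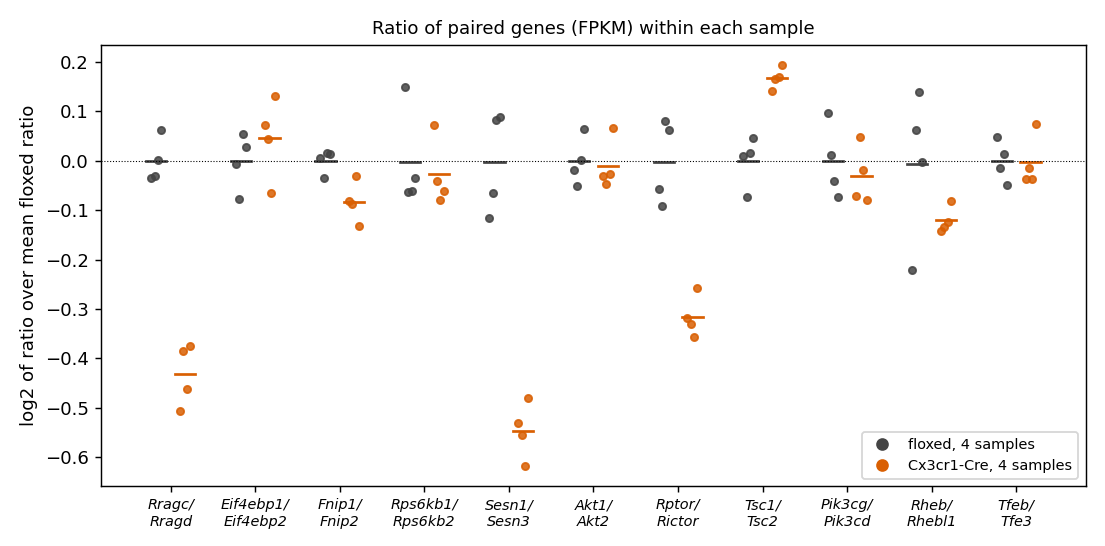
FPKM ratio of paired genes within each sample, as log2 of the ratio over the mean floxed ratio (vertical axis; points, samples; bars, group means; Rraga and Rragb left out for the low Rragb count). The ratios of Rragc to Rragd (mean log2 difference -0.43), Sesn1 to Sesn3 (-0.54) and Rptor to Rictor (-0.31) are lower and that of Tsc1 to Tsc2 (0.17) is higher in all 4 Cre samples, while Eif4ebp1 to Eif4ebp2, Rps6kb1 to Rps6kb2, Akt1 to Akt2, Pik3cg to Pik3cd and Tfeb to Tfe3 overlap.

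The transcripts of the translation substrates did not pass the test. Eif4ebp1, the gene of the translation repressor 4E-BP1, had normalized counts of 1685.5, 1590.5, 1675.6 and 1703.0 in floxed and 1775.5, 1757.4, 1641.8 and 1813.8 in Cre samples. Rps6kb1, which encodes the S6 kinase S6K1, had 1916.0, 1717.5, 1784.2 and 1870.9 against 1739.5, 1766.7, 1831.9 and 1881.9. The groups overlapped in both. Eif4ebp1 stood at 0.07 (SE 0.036, adjusted p = 0.131), and passed without Cre replicate 3 (lowest adjusted p = 0.038), while Rps6kb1 stood at -0.01 (SE 0.038, adjusted p = 0.816). Eif4ebp2 (0.02, adjusted p = 0.484) and Rps6kb2 (0.01, adjusted p = 0.888) did not pass either. These are transcript levels, and phosphorylation of the proteins was not part of this measurement.

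Ulk1, the autophagy-initiating kinase that mTORC1 holds back, was the substrate that changed most. Its normalized counts were 1400.1, 1421.1, 1406.9 and 1351.9 in floxed and 1709.1, 1775.0, 1804.5 and 1773.9 in Cre samples, with no overlap. The log2 fold change was 0.34 (1395.0 ± 30.0 to 1765.6 ± 40.3, SE 0.033, adjusted p = 4.86e-08). Among the transcription factors that mTORC1 keeps in the cytoplasm, Tfe3 was 0.11 lower on the log2 scale (6678.3 ± 82.9 to 6209.0 ± 163.7, adjusted p = 0.00147). Tfeb had 1071.9, 1039.1, 1077.1 and 1005.6 against 924.9, 963.4, 985.1 and 1020.2, with overlapping groups, and was called at -0.11 (SE 0.042, adjusted p = 0.0433). The Tfeb call passed in 7 of 18 alternative settings, with adjusted p from 0.0275 to 0.145, and was lost on leaving out floxed replicate 1, 2 or 3 or Cre replicate 1, 2 or 3, with DESeq2, with scaling to total reads, without the filter, without the variance trend and with a replicate block. Mitf did not pass (-0.02, adjusted p = 0.514).

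Genes of the pathway outside the list of 45 were counted from the same fit. Of 12 reported targets of TFEB, TFE3 and MITF, 6 were higher and none was lower (median log2 fold change 0.06). Over all tested genes 20.8% were called higher and 20.3% lower. All 12 had mean counts above the median of all tested genes, 831.5, and the share called at their levels was not computed. Among the 4000 genes between the quartiles of the 44 pathway genes, 52.1% were called in either direction. Gpnmb, a lysosomal glycoprotein of macrophages, led the higher targets (0.36, 402917.7 to 516040.9 normalized counts). Sqstm1, an autophagy receptor (0.12), and Ctsd, a lysosomal protease (0.12), followed. The count of higher targets was 3 without Cre replicate 4 and 2 without the variance trend of limma, and 1 target was lower without floxed replicate 1. Gpnmb rose most of the 12, with 400218.0 to 405949.8 in floxed and 499261.0 to 534619.3 in Cre samples. This holds for cultured TEMs. In tumor-associated macrophages sorted from AE17 tumors, the paper reported lower Gpnmb by qPCR with PHGDH deficiency, the opposite direction.

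Of 18 other substrates and outputs, 3 were lower and 5 higher (median -0.02), and the largest were Tfec (0.43), which encodes the fourth MiT-TFE factor, Lpin1 (0.29), a phosphatidate phosphatase gene, and Rb1cc1 (0.26), which encodes the ULK1 partner FIP200. Without floxed replicate 1, 5 of the 18 were lower. Of 18 other genes of the growth factor arm, 2 were lower and 10 higher (median 0.10): Ddit4l, which encodes the mTORC1 inhibitor REDD2, rose by 1.07 from low counts (24.3 ± 9.0 to 49.7 ± 6.08), and Irs2, an insulin receptor adaptor gene, by 0.60 (260.6 ± 19.6 to 396.4 ± 37.9), while Igf1r, which encodes a growth factor receptor, was 0.32 lower on the log2 scale (181.3 to 144.7). Without floxed replicate 2, 1 of the 18 was lower. Of 6 other subunits and assembly factors of the mTOR complexes, 1 was lower and 2 higher (median -0.05): the mTOR inhibitor gene Deptor (0.42), the mTORC2 subunit gene Prr5l (0.38) and the assembly factor gene Tti2, which changed by -0.14 and was not called without Cre replicate 3.

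Of 10 genes of AMPK, the energy-sensing kinase that restrains mTORC1, and of its activators, 4 were lower and 2 higher (median -0.04). Prkaa2, the less abundant catalytic subunit gene, rose by 0.66 (82.9 ± 13.1 to 131.2 ± 13.1, adjusted p = 0.000258), whereas Camkk2 (-0.18), which encodes an upstream kinase, and Prkag1 (-0.13), a regulatory subunit gene, were lower. Of 14 further amino acid sensing and transport genes, 1 was lower and 4 higher (median 0.04). Slc7a5, which encodes the large neutral amino acid transporter LAT1, changed by -0.48 (175.1 ± 28.8 to 124.1 ± 3.75, adjusted p = 0.00138), while the arginine sensor gene Castor1 (0.30) and Sh3bp4 (0.23), a Rag-binding protein gene, were higher. A second gene of the 14 was also called lower without floxed replicate 3 or 4.

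Some of the 44 genes share sequence or position with others, which bears on how firmly their counts can be read. In 75-base stretches, the read length of the study, 12.46% of the Rhebl1 transcript was shared with Dhh, 8.77% of Lamtor5 with Gm15190, 6.06% of Akt2 with Akt2-ps, 4.21% of Lamtor3 with Gm5900 and 3.88% of Lamtor1 with several transcripts. Genes on the opposite strand overlapped 23.7% of the exon bases of Rps6kb2 (Ptprcap, mean normalized count 9.18), 22.5% of Mlst8 (Bricd5, 1.77) and 17.7% of Nprl3 (Mpg, 307.8). More abundant genes overlapped smaller parts: 7.2% of Tsc2 (Pkd1, 2358.1), 2.9% of Akt1s1 (Tbc1d17, 1401.6), 1.8% of Rps6kb1 (Rnft1, 2108.8) and 0.9% of Rps6kb2 (Coro1b, 13847.0). The strand setting of the counting is not given in the sources used here. On chromosome 3, which carries Phgdh, lie Lamtor5, Lamtor2, Fnip2 and Lamtor3 at 8.94, 9.76, 18.75 and 39.58 Mb from it, and on chromosome 9 lie Nprl2 and Sesn3 at 12.36 and 105.57 Mb from Cx3cr1. Both groups carried floxed Phgdh alleles, whereas the altered Cx3cr1 allele was present in the Cre group only. The part of these positions in the values was not tested.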

How the data were processed

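RNA of the 4 Phgdh fl/fl and 4 Phgdh fl/fl Cx3cr1-Cre TEM samples was sequenced as single 75-base reads from a strand-marking library kit. According to the submitters' processing notes, TopHat2, HTSeq 0.6, DESeq2 and the mm10 build were used; the gene annotation and the strand setting are not given in the sources used here. The deposited table is named for FPKM, but its signal values are counts divided by 1 size factor per sample and not by gene length: 100.0% of 144353 values above 0 came out as whole reads (tolerance 0.01 read). They are called normalized counts. The authors' mean, log2 fold change, its standard error, test score (Wald statistic) and p-value columns were not used.

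Here log2(normalized count + 1) was tested with limma 3.58.1 in R 4.3.3 (empirical Bayes with trend, two-sided, Benjamini-Hochberg adjustment over the 13629 genes with a mean of at least 10), so that a log2 fold change understates the change of low genes. FPKM was computed from the recovered reads, gene reads per library and GENCODE M21 exon lengths (18629 genes found; GRCm38, the assembly of mm10). Tools were tested on simulated data. Alternatives were edgeR 4.0.16 and DESeq2 1.42.0 on the recovered reads, TMM, quantile and total-read scaling, another pseudocount (0.1), no filter, a minimum of 50, no trend, a replicate block and leaving out each sample. The genes and lists were chosen with earlier results of these data known. Called genes were named with their log2 fold change, and per-sample values were given for the 6 largest non-overlapping changes, the extremes of each role group, and Mtor, Rptor, Rheb, Eif4ebp1, Rps6kb1 and Tfeb; in the other lists the 3 largest called changes were named. Promoter sequences are from RefSeq (GRCm38.p6).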

Additional observations from a re-analysis of the deposited data

Results flagged for a closer look

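In 4 of 90 groups of 4 samples, the highest or lowest sample lay far from the other 3 by Dixon's criterion; chance alone gives this in about 5% of groups. Rptor in Cre replicate 3 was lowest at 2442.9 normalized counts, with the other Cre samples at 2561.8 to 2566.6. Rraga in floxed replicate 1 was lowest at 4251.4, with the others at 4419.8 to 4448.0. Rragb in Cre replicate 2 was highest at 21.8, with the others at 10.7 to 11.3. Fnip1 in floxed replicate 1 was highest at 6546.7, with the others at 5907.1 to 5982.0.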

How the results depend on the processing

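Of the 22 genes called, 19 passed with the same direction in all 18 alternative settings; Lamtor5, Mios and Tfeb, described above, did not. Of the 22 others, 17 passed in none, and Akt1, Tsc2, Wdr24, Seh1l and Eif4ebp1 passed in 1 or 2. The number of genes called lower ranged from 9 to 12 and higher from 11 to 13. The median log2 fold change of the 44 genes, 0.008, was -0.0033 under quantile normalization and 0.023 under scaling to total reads, and -0.0169 to 0.0195 on leaving out 1 sample; the cause was not tested. Replicate numbers are shared by the groups in the labels. The deviations of same-numbered samples correlated positively in all 4 pairs (0.063, 0.098, 0.126 and 0.078), but over 0.1 in 1 pair, so the numbers were not taken to pair the samples. Correlations between the genotypes were positive among replicates 1 and 4 and among replicates 2 and 3 and negative across them, and the second principal component (13.2% of the variance) separated the same sets in both genotypes; floxed replicate 1 correlated best with Cre replicate 4 (0.135). With a replicate block, the Tfeb call was lost (Tfeb log2 fold change -0.107, adjusted p = 0.0577), 10 genes were lower and 11 higher, the median was 0.008, and over all genes 2773 were lower and 2824 higher against 2764 and 2830 without it. Rragb did not reach a minimum mean of 50. Depth limits Rragb, at 13.9 normalized counts on average.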
